A study of Mus musculus with 3 samples.

Results

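Small nucleolar RNAs and small Cajal body RNAs were read from the expression arrays of a macrophage line exposed to fatty acids. Members were all probe sets whose annotation gave 1 gene symbol beginning with Snord, Snora or Scarna, with the mean taken where a gene had several probe sets. This gave 59 genes, 30 Snord, 26 Snora and 3 Scarna, of 18820 genes with a probe set of their own. They came from 67 probe sets.

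RAW264.7 is an established mouse macrophage line. Cells had been kept for 6 hours with 500 µM of oleate, elaidate or palmitate, each coupled to albumin freed of other fatty acids, with 2 fatty acid molecules to 1 of albumin. Oleate and elaidate are the cis and trans forms of one monounsaturated fatty acid, and palmitate is saturated with a shorter chain; the design asks how the 3 compare at one dose and time. Each fatty acid has 1 array, so no difference has a replicate check or a p-value, and no array of untreated cells is at hand to set a baseline. All 6 macrophage markers read (Adgre1, Cd68, Csf1r, Lyz2, Itgam, Spi1) lay between 7.02 and 11.8 on the log2 scale, and 7 markers of other cells between 2.36 and 5.03. The macrophage markers moved with the groups: 5 of 6 were lower with palmitate than with oleate (median -0.41, with Lyz2 at -0.83 and Adgre1 at -0.66), 5 were lower with elaidate (median -0.09), and Cd68 was equal on all 3 arrays. Their part in the differences of the small RNAs was not tested.

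Small nucleolar RNAs guide chemical changes of ribosomal RNA in the nucleolus. Snord genes encode box C/D RNAs, which mostly direct 2′-O-methylation with the methyltransferase fibrillarin, and Snora genes encode box H/ACA RNAs, which mostly direct pseudouridylation with dyskerin. Scarna genes encode relatives that gather in Cajal bodies and mostly guide changes of spliceosomal RNAs. In mammals most are cut from introns of host genes, and several box C/D RNAs of the Rpl13a introns have been described as mediators of cell death after palmitate.

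All 59 members matched a RefSeq gene by identifier (assembly GRCm38.p6), with lengths of 53 to 275 bases. By RefSeq positions 58 lay inside at least 1 other gene, 20 of them inside a ribosomal protein gene and 13 inside long non-coding RNA genes alone. The exception was Snord118. The strand of the members is not in the table used, so containment was not checked for strand. A probe set for such a gene cannot tell the finished small RNA from the unspliced intron of its host. RNA had been purified on silica columns, per the labels' protocols, which retain short RNAs poorly; how much finished small RNA reached the arrays was not tested.

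The start regions of 3 non-coding host genes are shown. Snhg10 holds Scarna13, the member with the largest difference, Snhg12 holds 3 members that differed from one another (Snora16a, Snora44 and Snora61), and Snhg1, a host on the list of snoRNA groups, holds Snord22, whose values lay close together. Each runs from 50 bases before to 50 bases after the RefSeq start (GRCm38.p6), and capitals mark runs of at least 6 pyrimidines (C or T on the gene's strand) that reach within 15 bases of the start. Many host genes are known to begin their transcripts in such a tract.
Snhg10, chr12:105032230-105032329, minus strand: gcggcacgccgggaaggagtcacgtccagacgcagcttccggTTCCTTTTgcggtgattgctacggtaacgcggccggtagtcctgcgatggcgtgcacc
Snhg12, chr4:132308628-132308727, plus strand: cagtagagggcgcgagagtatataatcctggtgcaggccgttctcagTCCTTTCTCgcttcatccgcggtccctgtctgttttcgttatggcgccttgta
Snhg1, chr19:8723437-8723536, plus strand: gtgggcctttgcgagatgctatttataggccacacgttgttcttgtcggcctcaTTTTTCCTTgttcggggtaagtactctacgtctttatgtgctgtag
A run of this kind was found in 21 of 39 start windows of the containing genes (53.8%), from 37 of 50 such genes that matched the RefSeq promoter table. Over all 32851 windows of the table the share was 37.5%. A run is a match of letters and does not show that a transcript begins there.

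No member sat near background. As a gauge of probe sets without expression, 1157 olfactory and vomeronasal receptor genes were used, whose median log2 value was 2.22 and whose 95th percentile was 3.20. A gene at or below that percentile was called near background, and 0 of 30 Snord, 0 of 26 Snora and 0 of 3 Scarna genes were, also when each array was held against its own limit of 3.22 (oleate), 3.19 (elaidate) or 3.21 (palmitate). By comparison, 11302 of all 18820 genes lay above the limit. So did Alb, Col1a1 and Cd3e, 3 of the 7 markers of other cells, so a value above it is no proof of expression. Snora36b came closest, at 3.51 on each of the 3 arrays, and it is the 1 member under the receptors' 99th percentile of 3.76. Snord37, at 3.90, 3.90 and 3.92 on the oleate, elaidate and palmitate arrays, and Snord85, at 3.97 on each, were the next. These 3 were the members under the median of all genes, 4.14.

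Snord genes had a median of 8.34 on the oleate array and 8.18 on both other arrays, and ranged from 3.90 to 10.7. Medians of the Snora genes were 6.65, 6.67 and 6.70 on the oleate, elaidate and palmitate arrays, with values from 3.51 to 10.5. The 3 Scarna genes ranged from 5.01 to 8.48. The median of all genes above the limit was 6.75 on the oleate array. Probe sets differ in how strongly they bind, so these levels place each gene against background and do not rank the abundance of the RNAs. By the mean over the 3 arrays the highest Snord gene was Snord16a of the Rpl4 gene, with 10.74, 10.68 and 10.57 on the oleate, elaidate and palmitate arrays, followed by Snord55, Snord22, Snord82 and Snord33. On the palmitate array alone Snord55, at 10.61, stood above it. By the same mean Snora52 of the Rplp2 gene was the highest Snora gene, at 10.35 on each array, followed by Snora61, Snora23, Snora73b and Snora34. On the palmitate array Snora61 was higher, at 10.49.

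**Figure D1:**
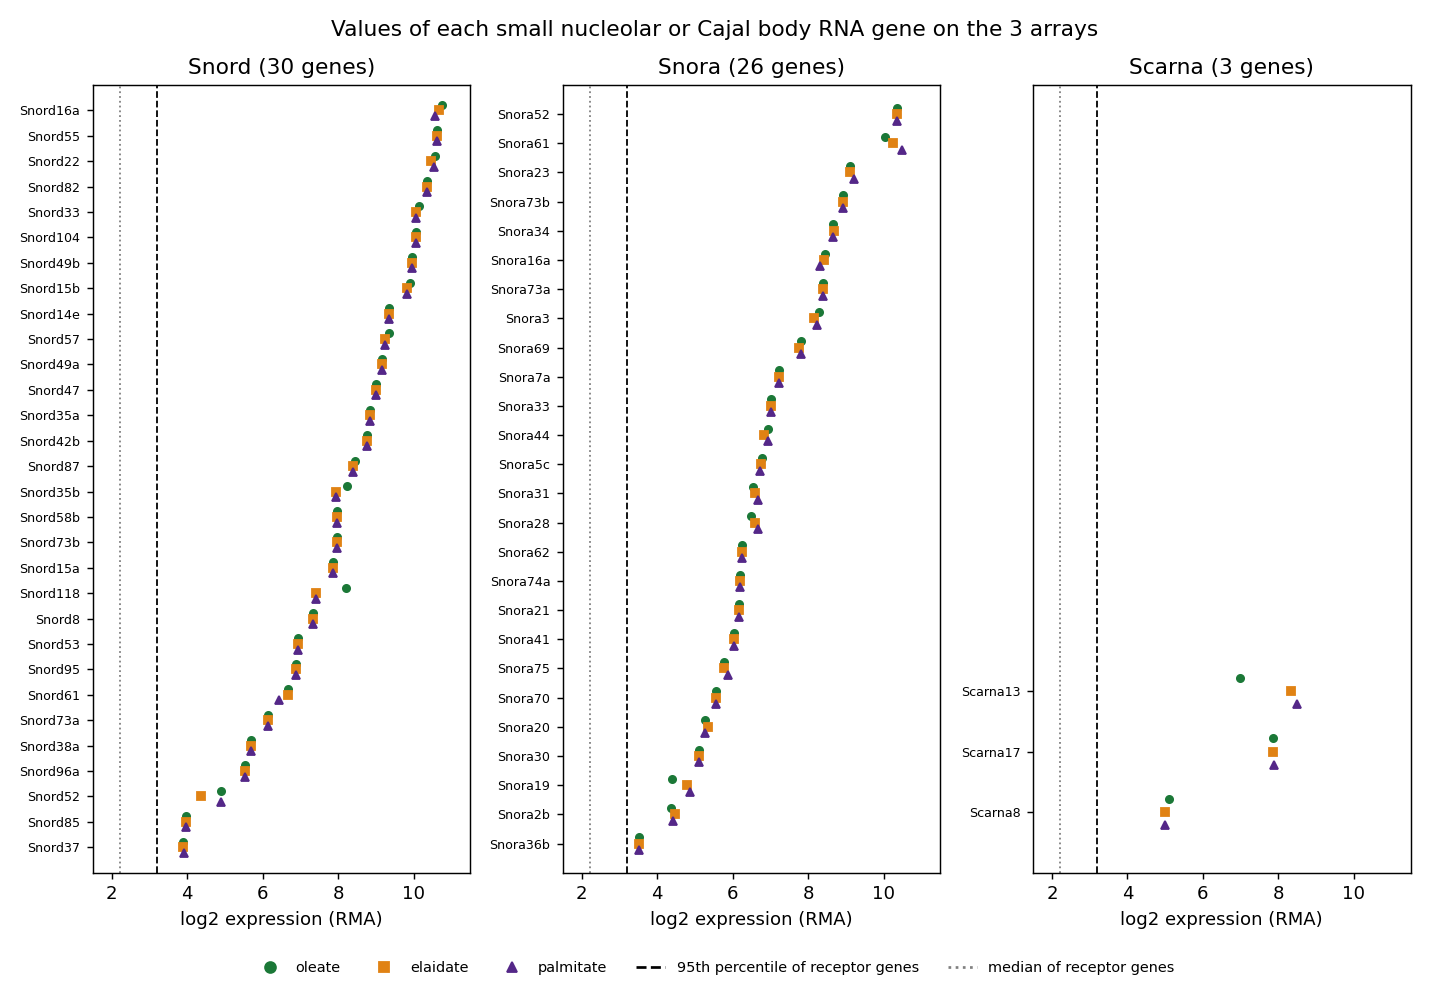
Log2 expression of each member gene (rows) on the oleate, elaidate and palmitate arrays (symbols, 1 array each), in 1 panel per gene name prefix; the dashed line is the 95th percentile of 1157 receptor genes (3.20) and the dotted line their median (2.22). All 59 genes lie right of the dashed line, and for most genes the 3 symbols coincide, with Scarna13, Snord118 and Snord52 as visible exceptions.

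For 42 of 59 genes (24 Snord, 16 Snora and 2 Scarna), or 71.2%, no 2 arrays differed by 0.1 or more on the log2 scale. The share was 55.8% of the 11302 genes above the limit, where all 59 members lay, and 69.9% of all 18820 genes. The members' share was thus higher than that of the genes above the limit, and close to that of all genes. Of 59 genes, 27 (45.8%) had the same value on all 3 arrays to within 1e-06, among them 16 of 30 Snord, 11 of 26 Snora and 0 of 3 Scarna genes. Of genes above the limit 35.3% were equal in this way, and of all 18820 genes 51.6%. Equal values to this precision came from the deposited summaries of probes and do not show that an RNA was unchanged. Of the 8 genes with several probe sets, 5 had equal levels in both, so the probe sets of these 5 add no independent reading. Levels differed between the probe sets of Snora3 (by 0.12), Snora21 (by 0.09) and Snord58b (by 0.0023). Differences between arrays were equal for 7 of the 8, all but Snora3.

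Where a Snord gene was not equal on the 3 arrays, oleate was usually the highest, often by little. This held for 10 of 14 such genes, against 24.2% of the genes above the limit that were not equal. Oleate was the lowest for 0 of 14, against 25.8%. In 6 of the 10 the elaidate and palmitate values were the same: Snord118, Snord14e, Snord15b, Snord33, Snord35a and Snord87. Of 15 Snora genes that were not equal, palmitate was highest for 6 (40%), elaidate for 4 (26.7%) and oleate for 3 (20%). The shares for genes above the limit that were not equal lay close to these, at 34.0%, 20.1% and 24.2%.

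**Figure D2:**
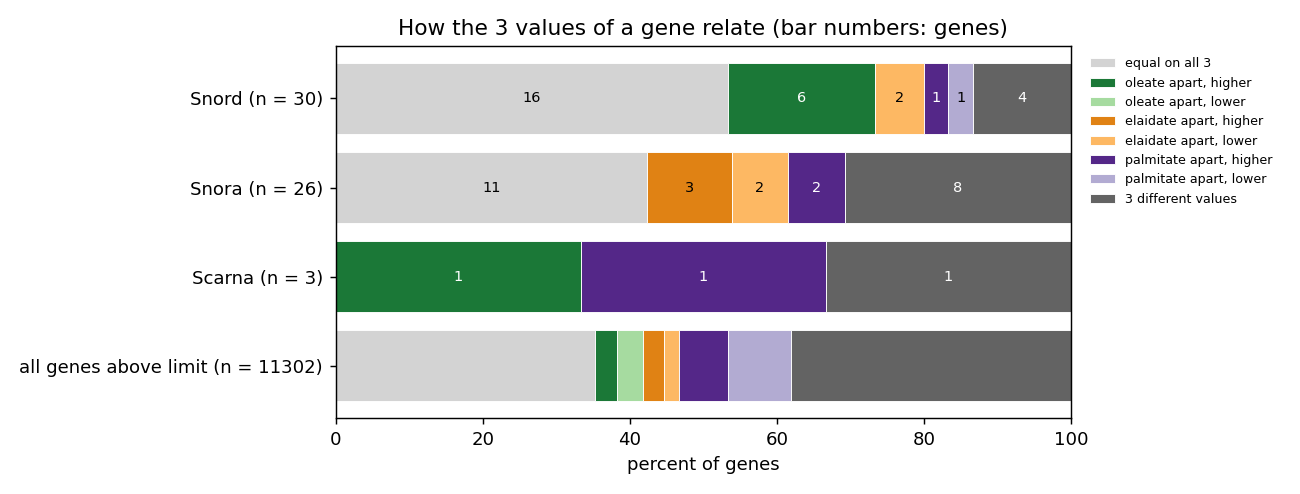
Percent of genes (horizontal axis) by how their 3 values relate, for each prefix and for all 11302 genes above the limit; "apart" means that the other 2 arrays were equal to within 1e-06, and numbers in the bars count genes. The oleate-higher class holds 6 of 30 Snord genes and 0 of 26 Snora genes, beside 3.05% of all genes above the limit.

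In elaidate against oleate, the trans isomer against the cis one, 1 member was at least 2-fold higher and 0 were 2-fold lower. Of genes above the limit 0.0885% were 2-fold higher and 0% 2-fold lower. The member was Scarna13, a Cajal body RNA that guides pseudouridylation of spliceosomal RNAs, with 6.97, 8.32 and 8.48 on the oleate, elaidate and palmitate arrays. Oleate stood alone and low. The difference of 1.35 was 2.54-fold and ranked number 2 from the top among the 11302 genes above the limit. The other Scarna genes did not share it: Scarna17 had 7.87, 7.87 and 7.89 and Scarna8 had 5.10, 5.01 and 5.01 on the oleate, elaidate and palmitate arrays.

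At the other end stood Snord118, a box C/D RNA that takes part in cutting the precursor of the large-subunit ribosomal RNAs rather than in methylation. Its value was 8.21 on the oleate array and 7.41 on both other arrays. Here oleate stood alone and high. The difference of -0.80 for elaidate minus oleate, 1.74-fold higher with oleate, was the lowest of all 11302 genes above the limit. Its 2 probe sets carried the same values, and it was the 1 member found inside no other gene.

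Snord52, in the non-coding gene 1110038B12Rik, was low on the elaidate array alone, with 4.90 on the oleate, 4.37 on the elaidate and 4.90 on the palmitate array. Its difference of -0.53 ranked number 10 from the bottom. The level of Snord52 was low: its mean of 4.72 lay under that of the highest receptor gene, 4.78. Snord35b had 8.24, 7.93 and 7.94 on the oleate, elaidate and palmitate arrays, a difference of -0.30 for elaidate minus oleate. Snord57, which lies in the gene of the box C/D protein Nop56, differed by -0.12. Over all Snord genes 12 were lower with elaidate than with oleate, 0 higher and 18 equal, while of genes above the limit 21.9% were lower, 27.7% higher and 50.4% equal. By at least 0.1, a limit added after the values were seen, 4 Snord genes were lower and 0 higher, beside 8.25% and 12.1% of genes above the limit.

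Snora genes went both ways between elaidate and oleate: 8 were higher, 5 lower and 13 equal. Genes above the limit did so too, with 27.7% higher, 21.9% lower and 50.4% equal. Snora19, in the translation factor gene Eif3a, was the highest, with 4.39 on the oleate, 4.79 on the elaidate and 4.86 on the palmitate array, a difference of 0.39. Its level was low as well, with a mean of 4.68 under the 4.78 of the highest receptor gene. After Snora19 came Snora61 at 0.20 and Snora2b at 0.10. The mean of Snora2b, 4.41, also lay under that of the highest receptor gene. The lowest were Snora3 at -0.13 and Snora44 at -0.12. Median differences were 0 for Snord (95% order-statistic interval over genes -0.02 to 0), 0 for Snora (0 to 0.01) and 0 for all genes above the limit. Such intervals treat genes as independent, although the genes share the same arrays, some share a host, and many differences were 0. They therefore describe the genes on these arrays and give no confidence about the difference between fatty acids, which had no replicate arrays. The standard deviation of the differences was 0.18 over Snord and 0.098 over Snora genes, beside 0.12 over all genes above the limit.

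**Figure D3:**
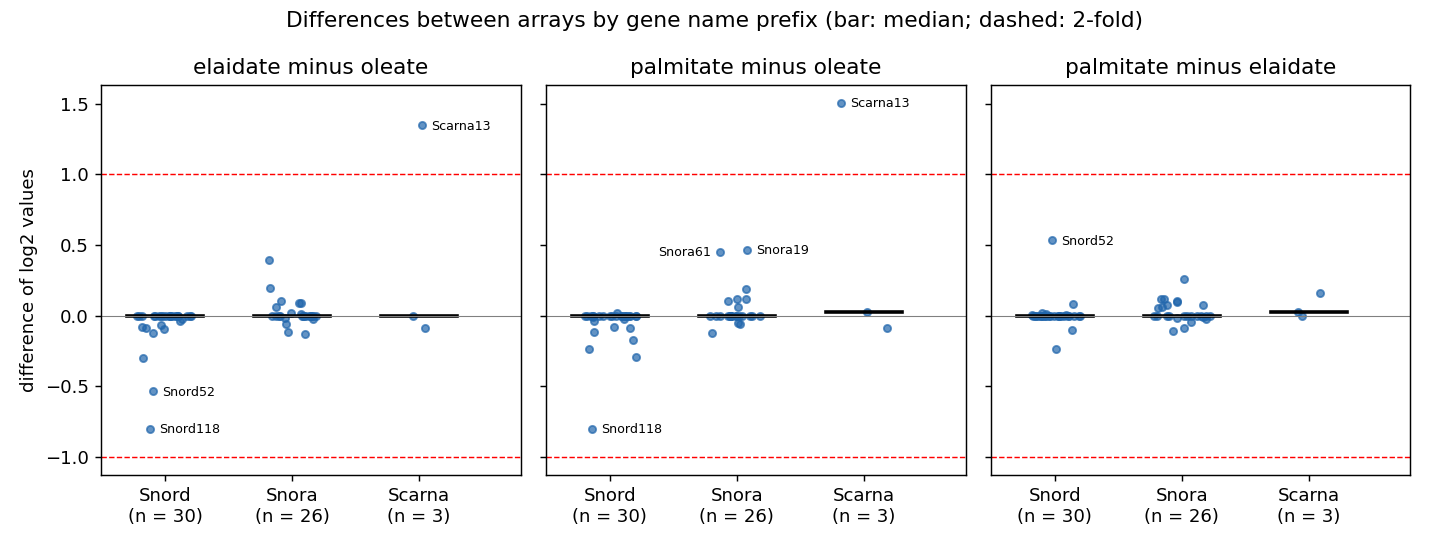
Difference of log2 values for each member gene (points) in the 3 comparisons (panels), by prefix; black bars are medians over genes and dashed lines mark 2-fold. Scarna13 is the point above 2-fold in both comparisons with oleate (1.35 and 1.51), Snord118 is lowest in both (-0.80), and no point passes 2-fold between palmitate and elaidate.

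Palmitate against oleate, the saturated against the cis monounsaturated fatty acid, shares the oleate array with the comparison above, so the values of a gene that stood apart with oleate return here. Again 1 member was 2-fold higher and 0 were 2-fold lower, beside 1.37% and 1.03% of genes above the limit. Scarna13 differed by 1.51, or 2.84-fold, and ranked number 64 from the top. Snord118 differed by -0.80 and ranked number 209 from the bottom. Snord35b stood at -0.29, Snord61 of the Rbmx gene at -0.23, Snord16a at -0.17 and Snord57 at -0.12. Over all Snord genes 11 were lower, 1 higher and 18 equal, beside 32.3% lower, 27.5% higher and 40.2% equal of genes above the limit.

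The highest Snora genes on the palmitate array relative to oleate were Snora19 at 0.47 and Snora61 at 0.45. Snora61 had 10.04 on the oleate, 10.23 on the elaidate and 10.49 on the palmitate array, so that the 3 arrays stood apart from each other. Snora28 of the translation factor gene Eif5 differed by 0.19, Snora31 of Tpt1 by 0.12 and Snora23 of Ipo7 by 0.11. Snora16a was the lowest at -0.12. In total 7 Snora genes were higher, 3 lower and 16 equal, beside 27.5%, 32.3% and 40.2% of genes above the limit. By at least 0.1, 6 Snora genes were higher and 1 lower, and 0 Snord genes higher and 5 lower, beside 18.2% higher and 21.8% lower of genes above the limit. With each array centred on its median the 6 Snora genes became 3. The standard deviation of the differences was 0.16 over Snord and 0.14 over Snora genes, beside 0.35 over all genes above the limit.

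Between palmitate and elaidate 0 members passed 2-fold in either direction, beside 0.814% higher and 0.743% lower of genes above the limit. Scarna13 differed by 0.16 and Snord118 was equal on the 2 arrays. Snord52 had the highest difference at 0.53, followed by Snora61 at 0.26, and Snora44 differed by 0.12. Snord61, with 6.66 on the oleate and elaidate arrays and 6.43 on the palmitate array, had the lowest at -0.23, followed by Snora16a at -0.11, Snord16a at -0.10 and Snora20 at -0.09. Snord genes were equal for 22, higher for 6 and lower for 2, and Snora genes equal for 11, higher for 9 and lower for 6. Among genes above the limit 41.8% were equal, 25.1% higher and 33.1% lower. By at least 0.1, 4 Snora genes were higher and 1 lower, against 15.9% and 22% of genes above the limit, but 1 higher and 2 lower with each array centred on its median.

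The box C/D RNAs of the Rpl13a introns are known for their part in lipotoxicity, the harm done to cells by surplus fatty acids. Snord33 had 10.15 on the oleate array and 10.07 on both other arrays, and Snord35a had 8.85, 8.84 and 8.84 on the oleate, elaidate and palmitate arrays. Neither was higher with palmitate than with oleate on these arrays: the differences were -0.09 for Snord33 and -0.01 for Snord35a. With no array of untreated cells, a change from baseline could not be read, and their part in lipotoxicity was not tested. The Rpl13a gene itself had 11.89 on each array. Snord32a and Snord34 share probe sets with Rpl13a in the annotation and so fall outside the member rule. The probe set of Snord34 and Rpl13a had 8.86, 8.59 and 8.43 on the oleate, elaidate and palmitate arrays, and that of Snord32a and Rpl13a had 10.46, 10.32 and 10.39. Both were highest with oleate.

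Snora73a and Snora73b are near-identical box H/ACA RNAs that act in ribosomal RNA processing and have been tied to cholesterol trafficking. Both lie in the Snhg3 gene, and values were 8.39 and 8.93 on each of the 3 arrays. Near-identical copies can share probes, so the 2 genes may not be read apart. Of the Gas5 introns 1 RNA of 10 listed was measured, Snord47 at 9.00 on each array, and Gas5 itself had 8.80, 8.84 and 9.01. Of the Snhg1 introns 1 of 8 was measured, Snord22 at 10.56, 10.46 and 10.55. The listed RNAs of the Prader-Willi and Dlk1-Dio3 loci had no probe set of their own symbol and were not analysed here.

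Members that share a host did not always share a pattern. The 3 members in Snhg12 differed by 0.45 (Snora61), 0 (Snora44) and -0.12 (Snora16a) between palmitate and oleate. The 2 in Kansl2 differed by 0.06 (Snora2b) and 0 (Snora34), and the 2 in the nucleolin gene Ncl by 0.10 (Snora75) and 0 (Snord82). In total 21 members shared 10 hosts. In 2410006H16Rik, Rack1, Rps3a1 and Snhg3 both members were equal on all 3 arrays.

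For 34 members the containing gene was the 1 such gene and had its own probe set, which gave 29 hosts. Some hosts read far below their member: on the oleate array Rplp2 had 5.28 beside 10.35 for Snora52, and Ncl 7.02 beside 10.35 for Snord82. Whether such probe sets read the host transcript was not tested. In palmitate against oleate 18 of these hosts were higher, 8 lower and 3 equal, beside 27.5%, 32.3% and 40.2% of genes above the limit. The host differences ran from -0.38 (Hspa8) to 0.62 (Rab3gap2). Member and host both differed in 15 pairs, and in 9 of them in the same direction. Eif3a differed by 0.34 beside 0.47 for Snora19, and Eif5 by 0.49 beside 0.19 for Snora28. Rab3gap2 differed by 0.62 while Snora36b, the member closest to background, was equal. Nop56 differed by 0.29 while Snord57 stood at -0.12, and Rpl4 by 0.13 while Snord16a stood at -0.17. Across the 34 pairs Pearson's r was 0.31 and Spearman's rho 0.20 for palmitate minus oleate, 0.17 and 0.16 for elaidate minus oleate, and 0.09 and -0.00075 for palmitate minus elaidate. Pairs share the same 3 arrays and some share a host, and many values are equal, so these are weak descriptions. Snhg10, the host of Scarna13, had no probe set of its own symbol and was not analysed here.

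**Figure D4:**
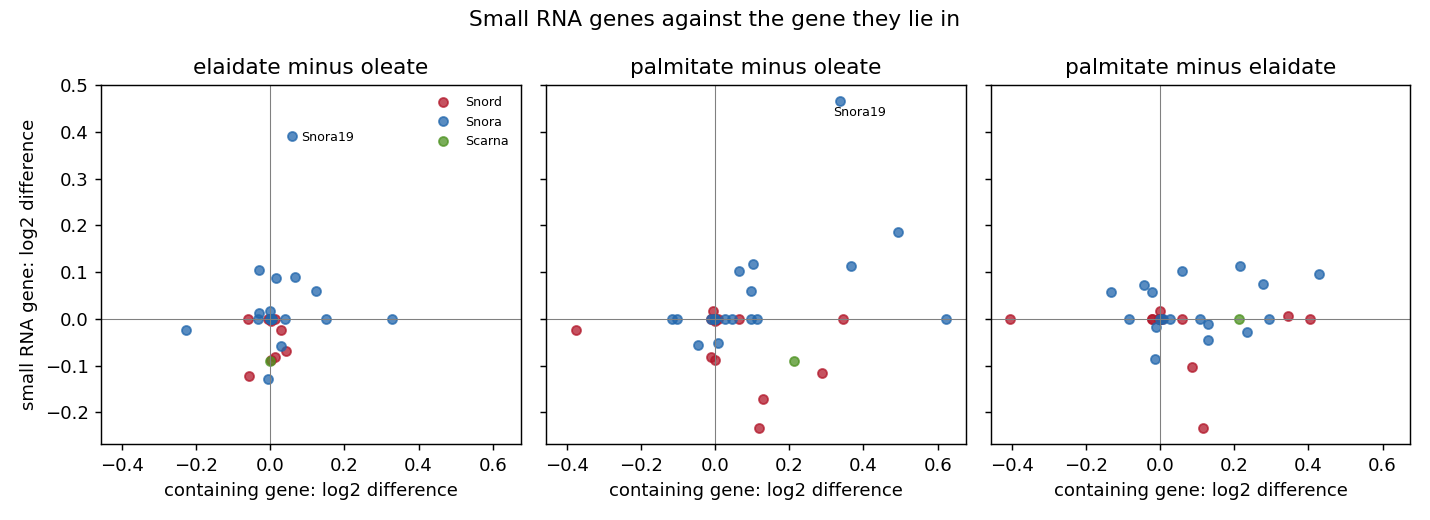
Log2 difference of each small RNA gene (vertical axis) against that of the gene it lies in (horizontal axis) for 34 pairs in the 3 comparisons; colours give the prefix. Snora19 lies highest in both comparisons with oleate (0.39 and 0.47), and many pairs lie on the horizontal line at 0, where the small RNA gene was equal on both arrays.

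The proteins that bind, assemble and trim these RNAs were read from a list of 31 genes, 28 of them measured and all 28 above the limit. None was 2-fold different in any comparison. Between palmitate and oleate 16 were higher, 5 were lower, 7 showed no difference, and their median was 0.07. Of genes above the limit 27.5% were higher, 32.3% lower and 40.2% equal in that comparison. Between elaidate and oleate 8 were higher, 8 lower and 12 equal, beside 27.7%, 21.9% and 50.4%. Of the box C/D core, Nop58 and Nop56 were higher with palmitate than with oleate by 0.32 and 0.29, the methyltransferase fibrillarin (Fbl) differed by -0.0048 and the RNA-binding protein Snu13 by -0.11. Of the box H/ACA core, Gar1 differed by 0.31, dyskerin (Dkc1) by 0.16, Nhp2 by -0.03 and Nop10 by -0.46.

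Among 9 measured assembly factors 6 were higher, 0 lower and 3 equal with palmitate against oleate, beside 27.5% higher and 32.3% lower of genes above the limit. With elaidate against oleate 0 were higher, 4 lower and 5 equal, beside 27.7% higher and 21.9% lower. Tcof1, which supports ribosomal RNA synthesis and modification, had 8.32, 8.04 and 8.95 on the oleate, elaidate and palmitate arrays, and Znhit6, a box C/D assembly factor, had 8.10, 8.01 and 8.60. Naf1, which assembles box H/ACA particles, differed by 0.40 between palmitate and oleate. Of the Cajal body proteins the scaffold coilin (Coil) differed by -0.18 and Smn1 by 0.12 between palmitate and oleate. Wrap53, which brings Scarna RNAs to the bodies, and Gemin2 were equal on all 3 arrays. Of 7 genes listed under trimming and turnover 5 were higher with palmitate than with oleate, by at most 0.14, and 2 were equal. With elaidate against oleate 3 were higher and 4 equal.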

How the data were processed

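RNA of each culture went to 1 Affymetrix array after whole-transcript sense labelling, as the labels' protocols state. The authors deposited log2 values, 1 for each probe set, from RMA (per the submitters' processing notes), which corrects background and scales arrays to one another; version and genome build are not given in the sources used here. The values entered as deposited. Over 35556 probe sets the arrays had medians of 3.57 (oleate), 3.58 (elaidate) and 3.61 (palmitate). The number of arrays limits the precision.

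Of the probe sets 21218 had 1 symbol in the platform's annotation, parts of which may be outdated. The 13 with more than 1 symbol, among them a small nucleolar RNA, were left out of the members. No test was possible. Differences of log2 values were described by counts, medians and ranks beside those of all genes above the background limit. Members, lists, limits and alternatives were chosen with earlier results of these data known. Named are members past 2-fold, the 5 highest and 5 lowest differences per comparison, the 5 highest levels of Snord and Snora, all Scarna genes and fixed groups; others were added after their values were seen. The counting step was tested on simulated data. Tools were R 4.3.3 with limma 3.58.1 (cyclic loess, span 0.7, 3 iterations) and Python 3.11.15 with pandas 2.3.3, numpy 2.4.6, matplotlib 3.10.9 and scipy 1.17.1.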

Additional observations from a re-analysis of the deposited data

How the results depend on the processing

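With 1 array per fatty acid no array could be left out. No paired analysis was possible because each group has 1 sample. No difference of a named gene changed by 0.1 or more under centring, cyclic loess or the probe set with the highest mean; the largest change was 0.04, under centring. With the receptors' 99th percentile 1 member was near background (1 Snora), and with the median of all genes 3 were (2 Snord, 1 Snora). At 1.5-fold 1 member was lower with elaidate and 1 with palmitate than with oleate, Snord118 in both. At 3-fold 0 were higher in either. Means in place of medians were, for elaidate minus oleate, -0.072 (Snord) and 0.024 (Snora), for palmitate minus oleate -0.062 and 0.049, and for palmitate minus elaidate 0.011 (Snord). The Scarna means, which rest on Scarna13 among 3 genes, were 0.42 and 0.48 in the comparisons of elaidate and palmitate with oleate, against medians of 0 and 0.025. Without Scarna13 the medians were -0.045 and -0.033. Medians without equal members were -0.085 (Snord) and 0.017 (Snora) for elaidate minus oleate, and -0.085 and 0.11 for palmitate minus oleate. For palmitate minus elaidate the Snord value was 0.0076. The Scarna value for elaidate minus oleate was 0.63, from Scarna13 at 1.35 and Scarna8 at -0.09 alone, so it shows no shared rise. Centring moved equal genes along with the arrays, to medians of -0.012 (Snora) for elaidate minus oleate, -0.040 (Snord) and -0.040 (Snora) for palmitate minus oleate, and -0.028 (Snord), -0.028 (Snora) and -0.0028 (Scarna) for palmitate minus elaidate. Cyclic loess gave -0.0011 (Snora) for elaidate minus oleate, 0.00027 (Snord) and 0.00082 (Snora) for palmitate minus oleate, and 0.0034 (Snord) for palmitate minus elaidate. Medians at 0 therefore carry no direction. Centring also changed counts of small differences of at least 0.1, in part as given beside them. Lower Snord genes went from 4 to 5 in elaidate minus oleate and from 5 to 7 in palmitate minus oleate. Higher Snora genes went from 3 to 2 in elaidate minus oleate. Lower Scarna genes went from 0 to 1 in both comparisons with oleate.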

Other observations

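The annotation pairs small nucleolar RNAs with another gene on 13 probe sets, which the member rule leaves out. All 13 lay above the background limit, with means from 4.22 to 10.4, and none was 2-fold different in any comparison. On 6 of them the 3 arrays were equal to within 1e-06. The probe set of Snord14a and Rps13 had 6.50 on the oleate array and 6.31 on both other arrays. The 2 probe sets of Snord14c, Snord14d and the chaperone gene Hspa8 differed by -0.14 and -0.15 for elaidate minus oleate and by -0.14 each for palmitate minus oleate, while Hspa8 on its own probe sets differed by 0.03 and -0.38. The probe set of Snora24 and Snhg8 differed by -0.18 between palmitate and oleate.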
